A study of Mus musculus with 24 samples.

Results

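The 40 genes followed here encode the machinery of mitosis, from the kinase that starts it to the proteins that cut the daughter cells apart. They were taken from a fixed list of symbols and found by gene ID among the 53379 genes of the deposited RNA tables; all 40 were found, and all 40 passed the filter on low counts that left 19470 genes to test. RNA was sequenced from 10 libraries of E14Tg2a.IV mouse embryonic stem cells and the embryoid bodies grown from them, 2 libraries in each of 5 groups: embryoid bodies at day 4 of the Smad2/3 double knockout (genotype Smad2/3DKO), of the Smad2 knockout (Smad2-/-), of the Smad3 knockout (Smad3-/-) and of wild-type (WT) cells, and WT stem cells at day 0. Embryoid bodies are aggregates in which stem cells differentiate once LIF, the factor that keeps them pluripotent, is left out of the medium. SMAD2 and SMAD3 carry the Nodal and Activin signal to the nucleus. Both libraries of a knockout carry the same line number in their file names, so a knockout cannot be told apart from its line. Separate cultures are not stated for the paired libraries, so a p-value here reflects library-to-library spread that may be technical.

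A dividing cell enters mitosis when CDK1, bound to a cyclin, is activated by CDC25 phosphatases. Polo and Aurora kinases then build the spindle, the kinetochore ties each chromosome to it, and the spindle checkpoint holds the cell until every chromosome is attached. The anaphase-promoting complex with CDC20 then releases separase from securin, the chromosomes part, and the central spindle and a contractile ring divide the cell. Most of these transcripts are made in G2 and M phase and fall in G1, so their level in a cell mixture follows the share of dividing cells. Mouse embryonic stem cells are known for fast cycling with a short G1. In bulk RNA, fewer cells of a type and less RNA per cell cannot be told apart.

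Each library held 35733249 to 53672980 expected counts. Pluripotency markers (8 genes: Pou5f1, Nanog, Sox2, Klf4, Zfp42, Esrrb, Tfcp2l1, Dppa3) summed to 1083 to 1492 CPM (counts scaled to library size) in WT at day 4 and 3474 to 3960 at day 0, with none at 0. Smad2 stood at 22.2 and 22.7 CPM in the double knockout and 19.2 and 20.4 in the Smad2 knockout, against 49.9 and 38.3 in WT at day 4 and 19.1 and 22.0 at day 0. Smad3 stood at 28.0 and 25.7 CPM in the double knockout, 30.8 and 31.0 in the Smad2 knockout and 49.7 and 48.7 in the libraries labelled Smad3 knockout, against 42.0 and 44.9 in WT at day 4, so its RNA checked neither the Smad3 nor the double knockout label. A property of the libraries ran across the groups and recurs below. The mean length of gene behind a count was 2705 and 2744 bases in the double knockout, 1883 and 1953 in the Smad2 knockout, 2594 and 2554 in the Smad3 knockout and 2694 and 2555 in WT at day 4, against 1735 and 1925 at day 0. The 80 ribosomal protein genes, which are short, took 6.5 and 5.96% of counts in the double knockout, 13.2 and 12.4% in the Smad2 knockout, 7.77 and 7.58% in the Smad3 knockout and 5.68 and 6.68% in WT at day 4, against 15.4 and 11.3% at day 0. The file names fall into 2 name series, and the second holds replicate 2 of every group except the double knockout.

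The promoters of these genes share short motifs that the choice of genes did not use. The cell cycle homology region, written TTTGAA, is known to be bound by complexes that hold mitotic genes silent outside G2 and M, and CCAAT is the motif of NF-Y. RefSeq promoter windows of 300 bases (250 before to 50 after the start, GRCm38.p6) were matched by symbol for 33 of the 40 genes. TTTGAA on either strand was present in 24 of the 33 (72.7%), against 12.1% of 12924 tested genes and 18.1% of all 27025 promoters. CCAAT on either strand was present in 25 of the 33 (75.8%), against 38.5% of tested genes and 37.9% of all promoters. Both motifs were present in 21 of the 33 (63.6%) and in 5.15% of tested genes. The 100 bases before the start are shown for 4 genes that differ in direction in the results below, on the gene's own strand with TTTGAA and CCAAT (or their reverse complements TTCAAA and ATTGG) in capitals.
Ccnb2, chr9:70421555-70421654, - strand: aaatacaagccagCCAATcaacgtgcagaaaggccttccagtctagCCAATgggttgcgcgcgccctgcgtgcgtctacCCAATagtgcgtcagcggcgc
Cdc20, chr4:118437344-118437443, - strand: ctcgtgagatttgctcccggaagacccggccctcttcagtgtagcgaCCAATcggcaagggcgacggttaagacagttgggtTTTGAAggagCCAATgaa
Kif11, chr19:37376282-37376381, + strand: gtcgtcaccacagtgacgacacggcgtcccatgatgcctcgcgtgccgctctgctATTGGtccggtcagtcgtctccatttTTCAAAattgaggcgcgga
Top2a, chr11:99024190-99024289, - strand: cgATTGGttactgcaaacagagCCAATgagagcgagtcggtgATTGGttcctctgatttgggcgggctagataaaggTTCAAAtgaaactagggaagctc
Ccnb2 and Cdc20 were called lower in WT at day 4 than at day 0, and Kif11 was called higher; in the Smad2 knockout, set against WT, Kif11 and Top2a were called lower and Ccnb2 higher. A match says that the letters are present in the window, and its use by a factor was not tested.

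Levels between genes were compared on the TPM scale, which divides by transcript length. In WT at day 4 the highest of the 40 was Top2a, the topoisomerase that untangles sister chromosomes, at 415 and 324 TPM. Cdk1, the master kinase of mitosis, followed at 369 and 277 TPM, and Ccnb1, its B-type cyclin, at 348 and 249 TPM. These 3 overlapped in their library values. Ube2c, the E2 enzyme of the anaphase-promoting complex, stood at 197 and 232 TPM and its activator Cdc20 at 168 and 219 TPM, and these also overlapped. The lowest were the phosphatases Cdc25c at 24.2 and 18.8 TPM and Cdc25b at 14.2 and 16.9 TPM. The ends of this order were alike in the other groups: Top2a and Cdk1 took the first 2 places in each of the 4 day 4 groups, and Cdc25b the last place in every group but the Smad3 knockout, where Cdc25c was last. Top2a also ranked first at day 0, where Ube2c and Cdk1 took the next 2 places. Spc24, a kinetochore subunit, held place 33 in WT at day 4 and place 10 at day 0.

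Summed over the 40 genes, CPM values were 6432 and 6386 in the double knockout, 5684 and 6186 in the Smad2 knockout, 5648 and 5424 in the Smad3 knockout and 7501 and 6500 in WT at day 4, against 7164 and 7508 at day 0. The WT libraries of day 4 and day 0 overlapped in this sum, and every knockout library, the double knockout included, lay below every WT library. The TPM sums were 4412 and 4463 in the double knockout, 3076 and 2838 in the Smad2 knockout, 3707 and 3565 in the Smad3 knockout and 4644 and 4042 in WT at day 4, against 3089 and 3771 at day 0. On that scale the double knockout lay between the WT libraries of day 4 and above those of day 0. CPM was highest at day 0 for 20 genes, in WT at day 4 for 10, in the double knockout for 7, in the Smad2 knockout for 2 and in the Smad3 knockout for 1. On the TPM scale the double knockout was highest for 19 genes, WT at day 4 for 14, day 0 for 5, the Smad3 knockout for 2 and the Smad2 knockout for none. The groups were therefore ordered differently on the 2 scales.

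**Figure D1:**
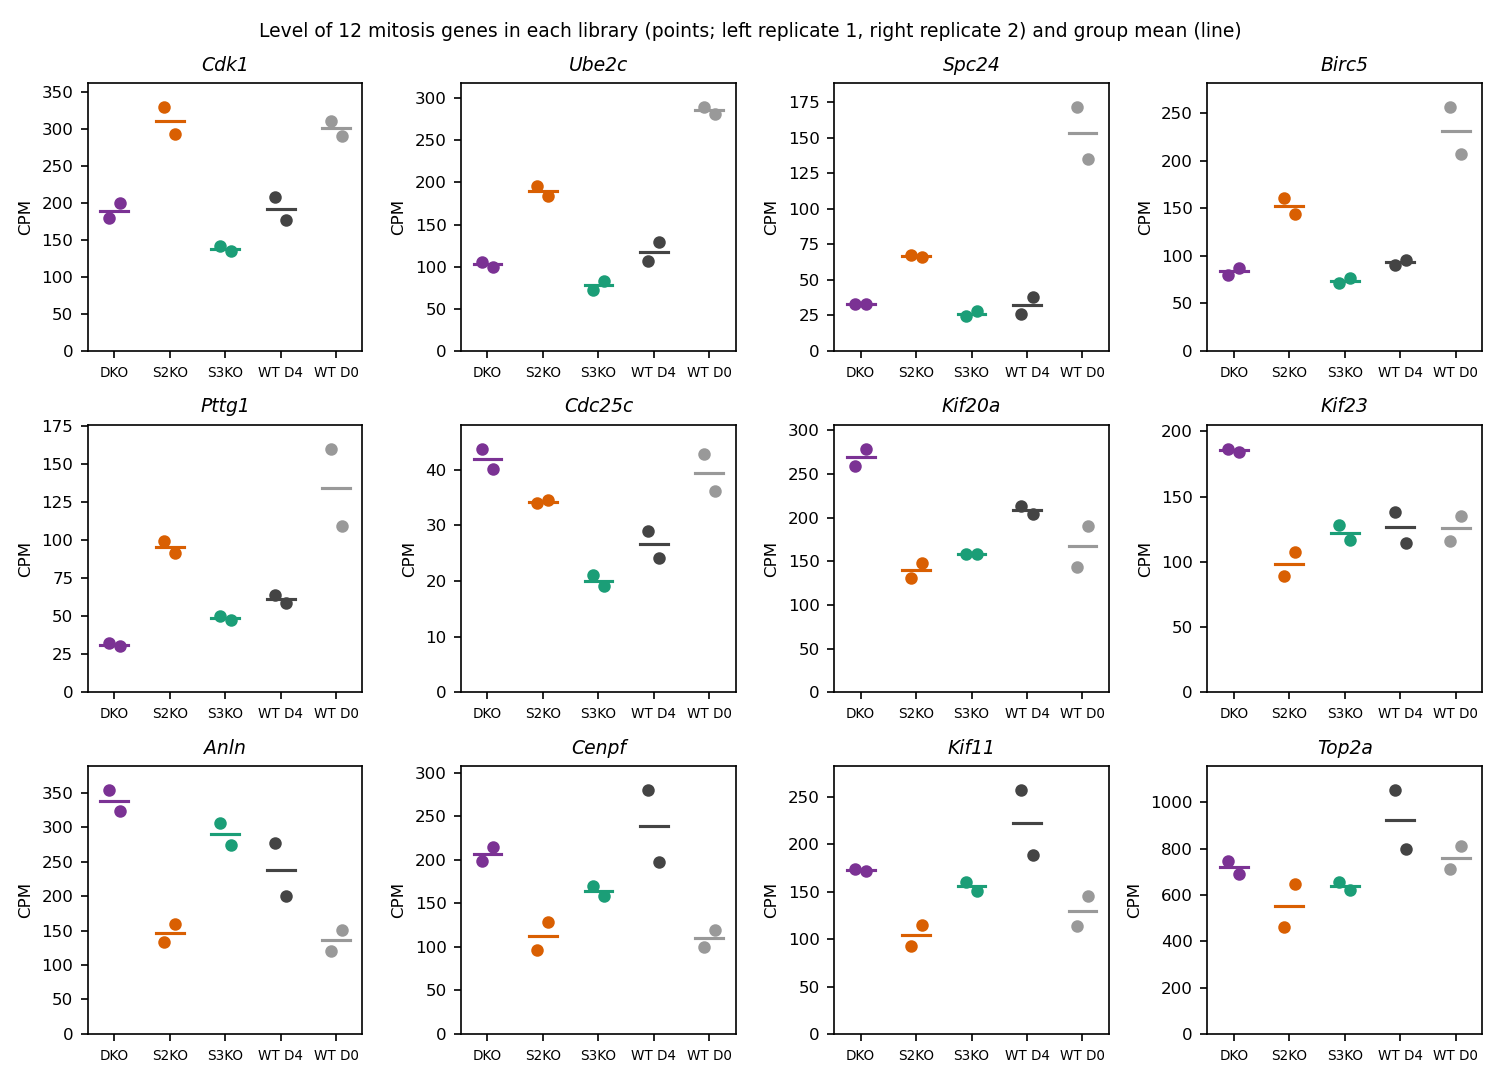
CPM (vertical axes, from 0) of 12 mitosis genes in each library, in the double knockout (DKO), Smad2 knockout (S2KO), Smad3 knockout (S3KO), WT at day 4 and WT at day 0 (horizontal axes); points are libraries and lines are group means. Spc24 stood at 26.1 and 38.2 CPM in WT at day 4 against 172 and 135 at day 0, and Pttg1 in the double knockout lay below every other library.

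The first comparison asked how the mitosis genes differ between WT embryoid bodies at day 4 and WT stem cells at day 0. As counted, they moved in both directions. Of the 40, 8 were called higher and 13 lower at day 4, where called means an adjusted p under 0.05 (edgeR's quasi-likelihood test, Benjamini-Hochberg over all 19470 genes). Of all genes tested, 28.9% were called higher and 23.2% lower. The share of mitosis genes called higher was below that background and the share called lower, at 32.5%, above it. Their median log2 fold change was -0.09, against 0.1 for all genes tested. The falls included genes of the CDK1, passenger complex and anaphase groups, and the rises the checkpoint kinases and large kinetochore proteins.

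The 2 falls that held in every one of the 19 other settings were those of Spc24 and Birc5. Spc24, the subunit of the NDC80 complex that faces the chromosome, stood at 26.1 and 38.2 CPM at day 4, against 172 and 135 CPM at day 0 (log2 change -2.25, SE 0.22, adjusted p = 9.29e-05). Every day 4 library lay below every day 0 library. Birc5, the survivin subunit of the passenger complex, stood at 90.5 and 95.7 CPM at day 4, against 256 and 207 CPM at day 0 (log2 change -1.32, SE 0.17, adjusted p = 0.0003). These groups did not overlap either. Within the first name series the log2 differences were -2.69 for Spc24 and -1.50 for Birc5, and within the second -1.81 and -1.11 in the same order.

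Among CDK1 and its regulators 3 of 6 were called lower and none higher. Cdk1 stood at 208 and 177 CPM at day 4, against 311 and 290.4 CPM at day 0 (log2 change -0.64, SE 0.16, adjusted p = 0.00871). Its day 4 libraries lay below those of day 0, and without WT day 0 replicate 1 the adjusted p was 0.0559. Ccnb2, a B-type cyclin, had -1.20 (adjusted p = 0.000272) and Cdc25c -0.57 (adjusted p = 0.0221). The cyclins Ccna2, at 304 and 220.2 CPM at day 4 and 229.5 and 244 at day 0, and Ccnb1, at 468 and 330.0 CPM at day 4 and 403 and 408 at day 0, were not called and their groups overlapped. Cdc25b was not called (-0.09). Of the spindle kinases, Aurka was called lower at -0.52 (adjusted p = 0.0318), while Plk1, at 96.1 and 189.7 CPM at day 4 and 146 and 183 CPM at day 0, and Tpx2, the activator of Aurora A, were not called. The 2 day 4 libraries of Plk1 lay on either side of those of day 0.

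The passenger complex, which corrects faulty chromosome attachments, had 3 of 4 genes called lower: beside Birc5, the borealin gene Cdca8 had -0.75 (adjusted p = 0.00571) and the scaffold Incenp -0.58 (adjusted p = 0.0278). Its kinase Aurkb stood at 60.7 and 88.3 CPM at day 4 and 102 and 112 CPM at day 0, a log2 difference of -0.52 that was just short of the threshold (adjusted p = 0.0518). The genes of anaphase had 3 of 4 called lower. Ube2c stood at 106 and 129.8 CPM at day 4, against 289 and 282 CPM at day 0 (log2 change -1.27, SE 0.16, adjusted p = 0.000333). Cdc20 stood at 151 and 251 CPM, against 351 and 346 CPM (log2 change -0.79, SE 0.24, adjusted p = 0.0206), and securin, Pttg1, had -1.14 (adjusted p = 0.00137). In each of these 3 the day 4 libraries lay below those of day 0. Separase, Espl1, was not called (-0.09).

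The checkpoint and kinetochore genes split. The checkpoint kinases Bub1 at 0.89 (adjusted p = 0.00486) and Ttk at 0.57 (adjusted p = 0.0223) were called higher, while Bub1b, at 247 and 234 CPM at day 4 and 232 and 257 CPM at day 0, and Mad2l1 (-0.01) were not called. Cenpf, a large outer kinetochore protein, stood at 279.7 and 197 CPM at day 4, against 100.1 and 119.8 CPM at day 0 (log2 change 1.12, SE 0.22, adjusted p = 0.0026). Cenpe, the kinetochore kinesin, stood at 158 and 119 CPM, against 69.3 and 69.6 CPM (log2 change 1.00, SE 0.18, adjusted p = 0.00162). Both had every day 4 library above every day 0 library. Cenpa, the histone H3 variant that marks centromeres, had -1.11 (adjusted p = 0.000477) in the other direction. Within the NDC80 complex Spc24 was called lower, Nuf2 called higher at 0.56 (adjusted p = 0.0237), and Ndc80 (-0.39) and Spc25 (-0.15) not called.

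Of the spindle motors and microtubule binders, Kif11, which pushes the spindle poles apart, stood at 257 and 189 CPM at day 4, against 114 and 146 CPM at day 0 (log2 change 0.78, SE 0.20, adjusted p = 0.0111), and its groups did not overlap. Nusap1 was called lower (-0.49, adjusted p = 0.0449), and Kif2c, Kif4 and Hmmr had -0.35, 0.29 and 0.40, not called. The calls of Nusap1, Aurka and Cdc25c were lost with no low-count filter. With the compared groups alone, the lower calls of Nusap1, Aurka, Incenp, Cdk1, Cdc25c and Cdc20 were lost. So were the higher calls of Kif11, Nuf2, Ttk, Anln and Mki67. Each was also lost when certain single libraries were left out. On log2(TPM + 1) values Nusap1, Aurka and Incenp had 0.50, 0.33 and 0.23, not called. Of the cytokinesis genes only Anln, the anillin scaffold of the contractile ring, was called, higher at 0.81 (adjusted p = 0.00976); Kif20a, Kif23, Prc1 and Ect2 had 0.32, 0.01, 0.01 and 0.59. Top2a, at 1052 and 798 CPM at day 4 and 712 and 812 CPM at day 0, was not called. Mki67, the coat protein of mitotic chromosomes used as a proliferation marker, stood at 535 and 408 CPM, against 282 and 291 CPM (log2 change 0.72, SE 0.23, adjusted p = 0.026), and its groups did not overlap. The median log2 difference was 0.08 within the first name series and -0.28 within the second, and all 21 called genes kept their sign in both. The calls came from these same libraries, so kept signs are no separate test, here or in the comparisons below. Fewer of the higher calls stood without WT day 0 replicate 1 (3), WT day 0 replicate 2 (5) or WT day 4 replicate 1 (3), and of the lower calls without WT day 0 replicate 1 (7); Bub1, Cenpf and Cenpe kept theirs without any 1 of the 10 libraries.

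**Figure D2:**
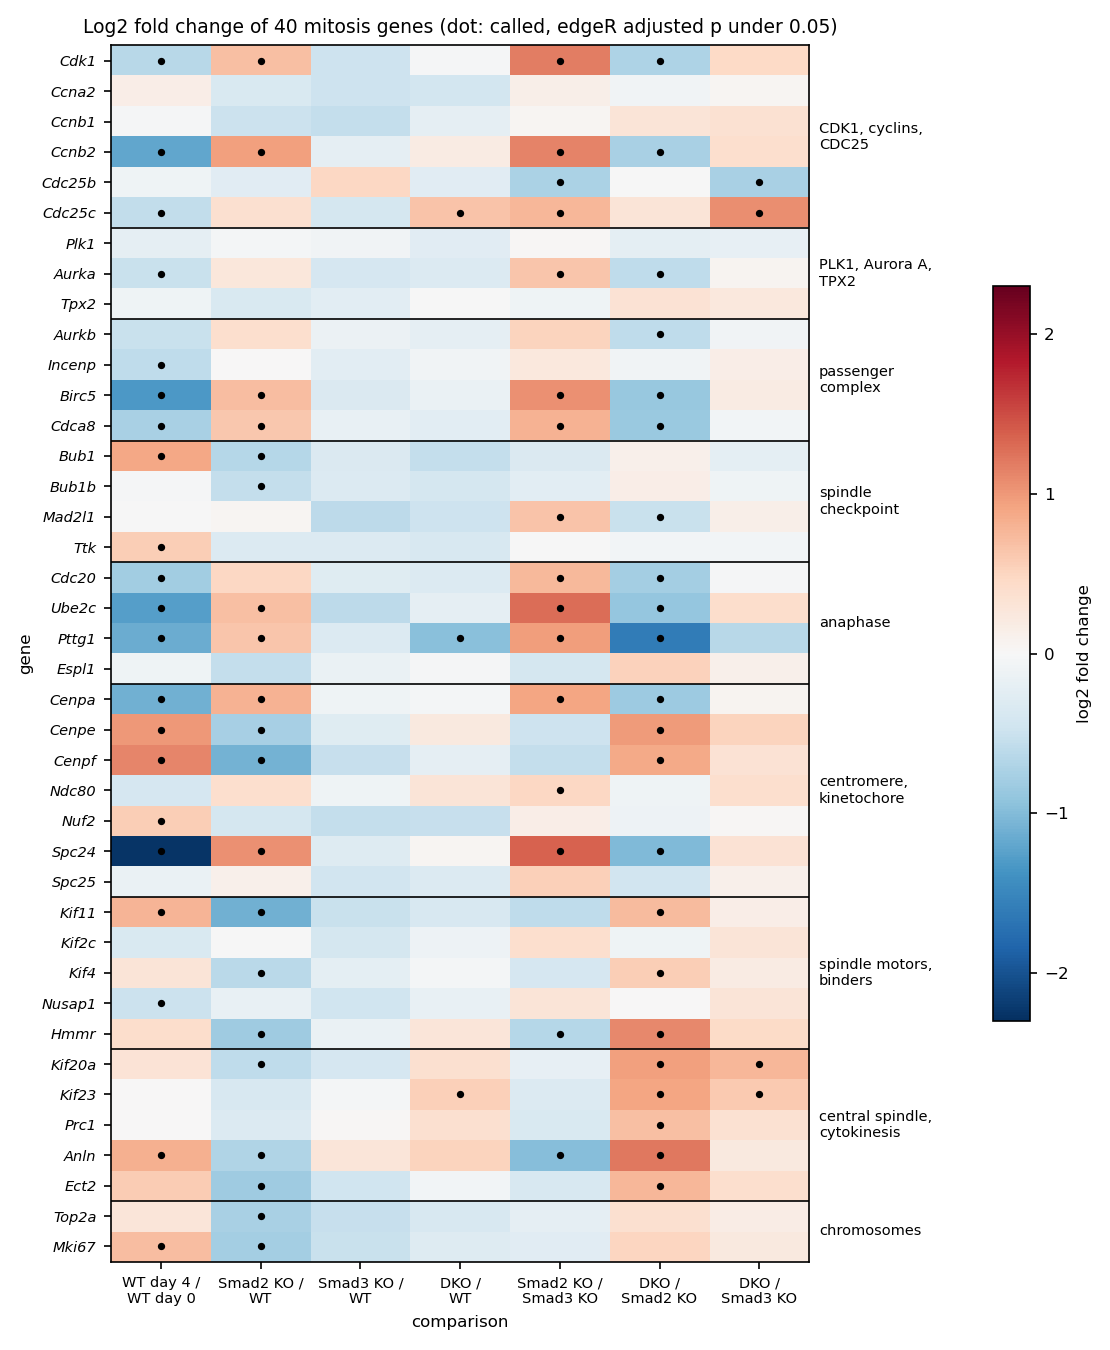
Log2 fold change (colour scale) of the 40 genes (rows, grouped by role) in 7 comparisons (columns, the group named first over the group named after it); a dot marks a call at an edgeR adjusted p under 0.05. WT at day 4 over day 0 holds 21 dots (8 higher, 13 lower), the Smad2 knockout over WT 20, the double knockout over WT 3 and the Smad3 knockout over WT 0.

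The direction of a mitosis gene followed its length, and also its transcript GC content. With GC, WT at day 4 over day 0 had a Spearman correlation of -0.69 over the 40 and -0.32 over all genes. Over the 40 genes, the log2 fold change of WT at day 4 over day 0 had a Spearman correlation of 0.79 with the effective length of the transcript, against 0.47 over 19447 tested genes; these are descriptions, since genes of 1 library pair are not independent. Of the 20 genes of at most 2404 bases, 1 was called higher and 11 lower, and of the 20 longer ones 7 were called higher and 2 lower. All tested genes split in the same way: 14.4% higher and 33.6% lower among the short, 50.2% higher and 7.89% lower among the long. With each library's own trend over length and GC content taken out as an offset, 0 mitosis genes were called higher and 24 lower (60.0%, median -0.48), against 22.8% higher and 25.7% lower for all genes. Cenpf then had -0.52 (adjusted p = 0.00741) and Kif11 -0.70 (adjusted p = 0.00193), Cdk1 lost its call at -0.01 (adjusted p = 0.964), and Spc24 kept it at -1.19 (adjusted p = 8.92e-05). On log2(TPM + 1) values, 19 of the 40 were called higher and 3 lower, beside a shift of the median of all genes by 0.64. The share of all genes called on those values is not given, here or in the comparisons below. The 40 mitosis genes had a median of 0.55 there, and 6 had negative values. Spc24 (-1.60), Birc5 (-0.58) and Cenpa (-0.47) were the 3 called lower. The part of library composition in these directions was not tested.

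**Figure D3:**
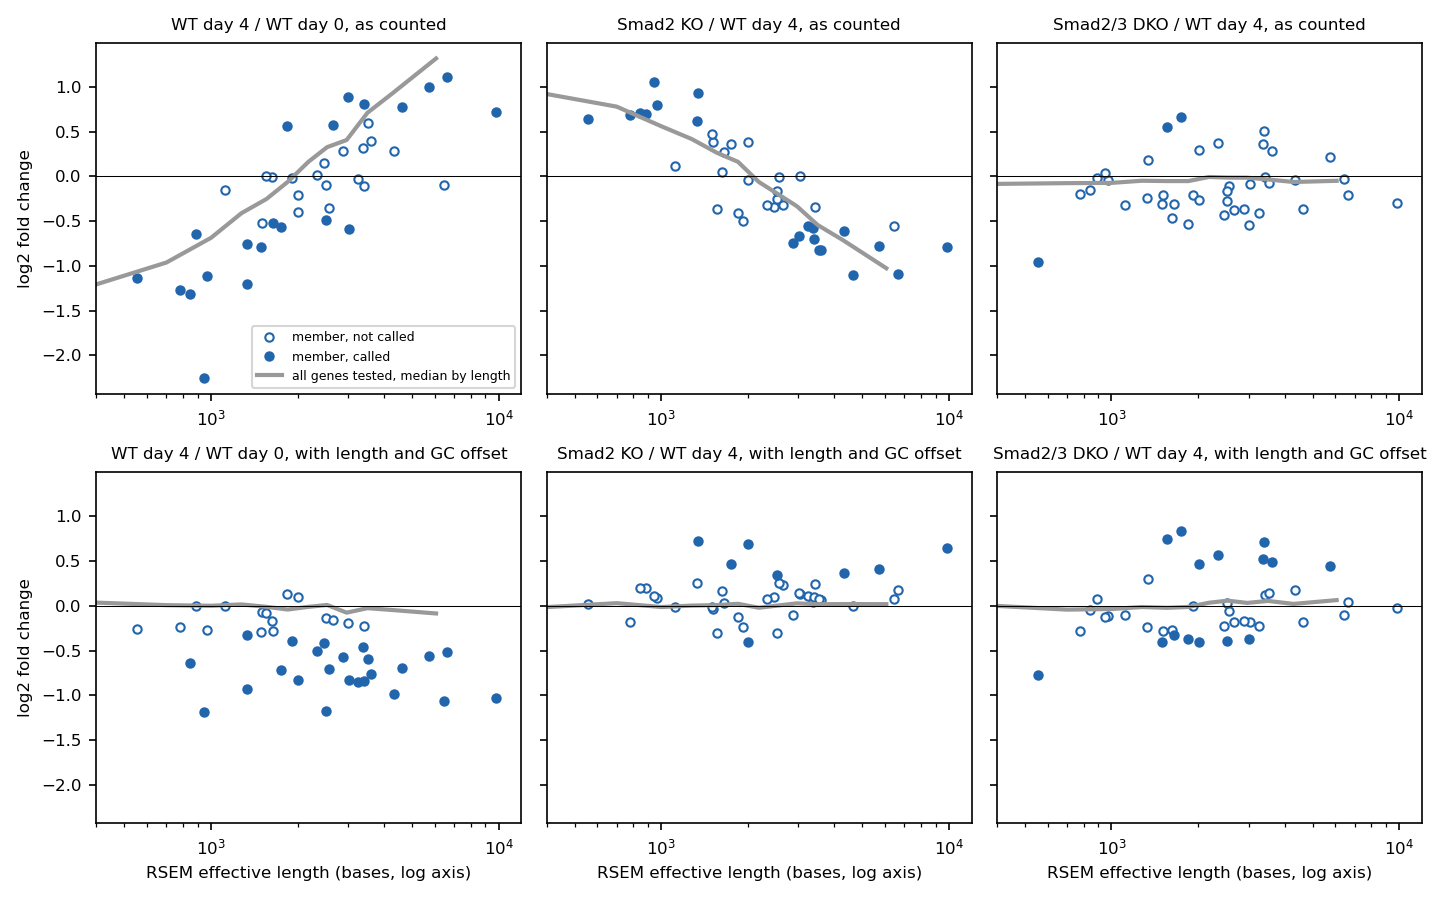
Log2 fold change (vertical axes) against RSEM effective length in bases (horizontal log axes) for the 40 mitosis genes (points, filled where called) and for all genes tested (grey line, median by length), in 3 comparisons, as counted (top) and with the length and GC offset (bottom). As counted, the points rise with length at day 4 (Spearman 0.79), fall with length in the Smad2 knockout (-0.89) and have no slope in the double knockout (0.09).

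The second comparison set the Smad2 knockout against WT at day 4. Of the 40 genes 8 were called higher and 12 lower, where 15.4% of all genes were called higher and 20.1% lower; the median log2 fold change was -0.29, against -0.01 for all genes. The 8 higher were Spc24, Ccnb2, Cenpa, Birc5, Cdk1, Ube2c, Pttg1 and Cdca8, and the 12 lower were Kif11, Cenpf, Hmmr, Ect2, Mki67, Cenpe, Top2a, Anln, Bub1, Kif4, Kif20a and Bub1b. All 8 that were higher were among the 20 short genes and all 12 that were lower among the 20 long ones. The Spearman correlation with length was -0.89 (-0.5 over all genes), and with GC content 0.6 (0.37 over all genes). Of all genes, 23.0% of the short were called higher and 39.3% of the long lower.

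Spc24 stood at 67.4 and 66.3 CPM in the Smad2 knockout, against 26.1 and 38.2 CPM in WT (log2 change 1.06, SE 0.21, adjusted p = 0.00601). Ccnb2 stood at 210.3 and 187 CPM, against 100.2 and 107 CPM in WT (log2 change 0.94, SE 0.15, adjusted p = 0.00245). Cenpa stood at 184 and 178 CPM, against 100.4 and 108 CPM in WT (log2 change 0.79, SE 0.15, adjusted p = 0.00504). In all 3 the knockout libraries lay above the WT libraries. Cdk1, at 329 and 293 CPM in the knockout and 208 and 177 in WT, was called as well (0.69, adjusted p = 0.0107), and the other 4 higher calls had 0.62 to 0.71.

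Kif11 stood at 93.3 and 115 CPM in the Smad2 knockout, against 257 and 189 CPM in WT (log2 change -1.10, SE 0.21, adjusted p = 0.00454). Cenpf stood at 96.3 and 128 CPM, against 279.7 and 197 CPM in WT (log2 change -1.08, SE 0.22, adjusted p = 0.006). Hmmr, a receptor that also binds spindle microtubules, stood at 86.1 and 105 CPM, against 200.3 and 138 CPM in WT (log2 change -0.82, SE 0.22, adjusted p = 0.0195). All knockout libraries lay below the WT libraries in these 3. Mki67 (-0.78, adjusted p = 0.027), Top2a (-0.74, adjusted p = 0.0263) and Bub1b (-0.56, adjusted p = 0.0332) were also called lower, Mki67 at 221 and 327 CPM, Top2a at 459.8 and 647 and Bub1b at 142 and 185 in the knockout. Ccna2, Ccnb1, Plk1, Aurkb and Cdc20 were not called, with log2 differences of -0.34, -0.49, -0.04, 0.39 and 0.47; their knockout values were 220.0 and 194 CPM for Ccna2, 290.3 and 276 for Ccnb1, 134 and 143 for Plk1, 99.2 and 95.6 for Aurkb and 253 and 304 for Cdc20. The other genes not called ran from -0.55 (Espl1) to 0.39 (Ndc80).

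None of the 20 calls in the Smad2 knockout stood both with the length and GC offset and on the TPM scale. With the offset 7 genes were called higher and 1 lower (17.5 and 2.5%, beside 12.7 and 12.5% of all genes), and 11 of the 20 changed sign; Ccnb2 alone of the 20 kept its call, at 0.73 (adjusted p = 0.00203), and Mki67 (0.64, adjusted p = 0.0144), Cenpe (0.41, adjusted p = 0.0175) and Kif4 (0.37, adjusted p = 0.0189) were called in the opposite direction. On log2(TPM + 1) values, where the median of all genes shifted by -0.51, 22 were called lower and 0 higher. Of the 20 calls as counted, 1 was left with the compared groups alone, Kif11. The lower calls numbered 4 without WT day 4 replicate 1, 19 without WT day 4 replicate 2 and 2 without Smad2 knockout replicate 1, where Kif11 and Cenpf were left. Within the first name series the median log2 difference was -0.33 and within the second -0.11, with the sign of all 20 kept. Markers of extraembryonic endoderm (11 genes, 0 of them at 0) summed to 62.2 to 66.0 CPM in the knockout and 957 to 1041 in WT, and those of trophoblast (12 genes) to 247 to 412 and 258 to 262. Mesoderm and streak markers (6 genes, 0 at 0) summed to 11.8 to 147 CPM in the knockout, its 2 libraries far apart, and 378 to 388 in WT, and neuroectoderm markers (6 genes, 0 at 0) to 58.1 to 73.7 and 217 to 252. The lists' part in the mitosis genes was not tested.

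The next comparison set the libraries labelled Smad3 knockout against WT at day 4. None of the 40 genes was called in either direction (edgeR), where 0.431% of all genes were called higher and 0.123% lower. At an unadjusted p under 0.05 there were 15, and DESeq2 called 1 lower. The share of all genes under that unadjusted p or called by DESeq2 is not given here. The values lay to 1 side: 37 of 40 log2 differences were negative, with a median of -0.32 against -0.04 for all genes, of which 10418 of 19470 were negative. Ube2c stood at 72.3 and 83.3 CPM in the Smad3 knockout and 106 and 129.8 CPM in WT (log2 change -0.60, SE 0.16, adjusted p = 0.125). Mad2l1, a checkpoint protein that inhibits CDC20, stood at 84.8 and 81.1 CPM and 142 and 109 in WT (log2 change -0.60, SE 0.17, adjusted p = 0.137). In both the knockout libraries lay below the WT libraries. The 3 positive values were those of Cdc25b (0.48), Anln (0.28) and Prc1 (0.02).

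Of the genes shown throughout, Cdk1 stood at 141 and 135 CPM in the Smad3 knockout, Ccna2 at 204 and 173, Ccnb1 at 307 and 239, Plk1 at 117 and 154 and Aurkb at 61.9 and 74.7. Bub1b stood at 198 and 188 CPM, Cdc20 at 149 and 183, Cenpf at 170.1 and 158 and Kif11 at 161 and 150.5. Top2a stood at 657 and 622 CPM and Mki67 at 341 and 317. The knockout libraries lay below both WT libraries for Cdk1, Ccna2, Ccnb1, Bub1b, Cenpf, Kif11, Top2a and Mki67, and overlapped them for Plk1 and Aurkb; Cdc20 had 1 knockout library below and 1 between those of WT. These differences did not follow length (Spearman 0.0 over the 40 genes). With GC content the correlation was 0.3, against 0.28 over all genes. The median was -0.34 within the first name series and -0.31 within the second. The count of calls rested on 1 library: without WT day 4 replicate 2 some genes were called, most of them lower. The share of all genes called in that fit was not counted. With the length and GC offset 2 were called lower, both among the 20 short genes, and 34 of 40 values were negative. Of all genes, 2.545% of the short and 2.957% of the long were called lower with the offset. Extraembryonic endoderm markers summed to 594.9 to 599.7 CPM in the Smad3 knockout and 957 to 1041 in WT, mesoderm and streak markers to 219.7 to 242.5 and 378 to 388, neuroectoderm markers to 181.5 to 181.7 and 217 to 252, and trophoblast markers to 167 to 183 and 258 to 262. Their part in these differences was not tested.

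The last comparison with WT set the Smad2/3 double knockout against WT at day 4. Few mitosis genes were called: 2 higher and 1 lower, where 10.8% of all genes were called higher and 12.3% lower, so that as counted both shares of the 40 (5.0 and 2.5%) were below the background. The median log2 fold change was -0.18, against -0.05 for all genes. The 3 called genes have different roles, and all 3 kept their calls with the length and GC offset and on the TPM scale. Cdc25c lies on chromosome 18, Kif23 on chromosome 9 and Pttg1 on chromosome 11. How near each lies to Smad2 or Smad3 was not examined. The part of position in these calls was not tested. Kif23 lost its call with no low-count filter, with the replicate block and with the compared groups alone, and Cdc25c with no low-count filter and with the compared groups alone.

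Pttg1, the securin that blocks separase until anaphase, stood at 32.5 and 30.2 CPM in the double knockout, against 63.7 and 58.5 CPM in WT (log2 change -0.96, SE 0.20, adjusted p = 0.00739). Cdc25c, a phosphatase that activates CDK1, stood at 43.8 and 40.1 CPM, against 29.1 and 24.1 CPM in WT (log2 change 0.66, SE 0.18, adjusted p = 0.0244). Kif23, the motor of the centralspindlin complex, stood at 186 and 184 CPM, against 138 and 114 CPM in WT (log2 change 0.55, SE 0.17, adjusted p = 0.0476). The groups did not overlap in any of the 3. With the offset Pttg1 had -0.77 (adjusted p = 0.00109), Cdc25c 0.84 (adjusted p = 0.000722) and Kif23 0.75 (adjusted p = 0.0021). Within the first name series, which holds both double knockout libraries and 1 of WT, the log2 differences were -1.01, 0.52 and 0.42 in the same order.

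Each of these 3 calls was lost when certain single libraries were left out. Without either double knockout library the Pttg1 call was lost. Cdc25c and Kif23 lost theirs without WT day 4 replicate 2 and without either library of the Smad3 knockout or of the double knockout. Kif23 did so also without either day 0 library. Over the 10 fits that each lacked 1 library, log2 values ran from -1.03 to -0.84 for Pttg1. They ran from 0.52 to 0.86 for Cdc25c and from 0.42 to 0.75 for Kif23. More genes were called lower without WT day 4 replicate 2, and more were called higher without WT day 4 replicate 1. With the offset 8 higher and 7 lower were called, beside 18.3% higher and 17.8% lower for all genes. The cytokinesis genes Anln (0.51), Prc1 (0.37) and Kif20a (0.37) were not called as counted and were among the 8 with the offset, at 0.71, 0.57 and 0.52.

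The other genes shown throughout were not called. Cdk1 stood at 179.8 and 199 CPM in the double knockout (log2 difference -0.02), Ccna2 at 190.3 and 199 (-0.43), Ccnb1 at 349.5 and 344 (-0.20), Plk1 at 123 and 115 (-0.27) and Aurkb at 64.2 and 65.3 (-0.20). Bub1b stood at 190.5 and 171 CPM (-0.41), Cdc20 at 157 and 166 (-0.31), Cenpf at 199 and 214 (-0.21) and Kif11 at 174 and 172 (-0.37). Top2a stood at 749 and 689 CPM (-0.36) and Mki67 at 340.3 and 429.6 (-0.29). Of these, the double knockout libraries of Ccna2, Bub1b, Kif11 and Top2a lay below both WT libraries, and the others overlapped them. Trophoblast markers (12 genes, 0 at 0) summed to 746 to 889 CPM in the double knockout and 258 to 262 in WT, where the placental genes Prl3d1 and Tpbpa were at 0. Extraembryonic endoderm markers summed to 331 to 410 CPM and 957 to 1041. Mesoderm and streak markers summed to 9.92 to 14.95 CPM and 378 to 388, and neuroectoderm markers to 68.6 to 73.1 and 217 to 252. Fibroblast markers (8 genes) summed to 49.4 to 55.5 CPM in the double knockout and 23.1 to 34.4 in WT. They summed to 56.8 to 60.5 in the Smad2 knockout and 50.8 to 60.4 in the Smad3 knockout. Pluripotency markers summed to 807.5 to 1019 CPM in the double knockout and 1083 to 1492 in WT. These lists differed with the genotype, and their part in the 3 calls was not tested.

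The knockouts were then compared with each other. Between the Smad2 and Smad3 knockouts 13 of the 40 genes were called higher and 3 lower, where 15.7% of all genes were called higher and 17.9% lower. Spc24 stood at 67.4 and 66.3 CPM in the Smad2 knockout, against 24.3 and 28.2 CPM in the Smad3 knockout (log2 change 1.35, SE 0.21, adjusted p = 0.003). Ube2c stood at 196 and 184 CPM, against 72.3 and 83.3 CPM (log2 change 1.28, SE 0.16, adjusted p = 0.00173), and Cdk1 at 329 and 293 CPM, against 141 and 135 CPM (log2 change 1.17, SE 0.16, adjusted p = 0.00204). No library of the Smad3 knockout reached the Smad2 knockout in these 3. The 3 lower genes were Anln, at 134 and 160.2 CPM against 306 and 275 (log2 change -0.98, SE 0.21, adjusted p = 0.00824), Cdc25b, at 24.2 and 23.8 against 37.6 and 42.1 (log2 change -0.73, SE 0.19, adjusted p = 0.0159), and Hmmr, at 86.1 and 105 against 159.7 and 143 (log2 change -0.66, SE 0.22, adjusted p = 0.0453). These groups did not overlap.

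All 13 higher genes were short and all 3 lower genes long, and the Spearman correlation with length was -0.86 (-0.49 over all genes). With GC content it was 0.46 (0.23 over all genes). With the offset 20 were called higher and 3 lower (all genes 15.2 and 13.4%), Ube2c at 0.50, Spc24 at 0.57 and Cdk1 at 0.60, while Hmmr turned to 0.01, not called. Hmmr also lost its call with the replicate block. Ube2c, Cdc25b and Anln kept their calls with the offset and on the TPM scale. On that scale 1 gene was called higher and 17 lower, with the median of all genes at -0.57. The median log2 difference was 0.09 within the first name series, where 16 of the 16 called genes kept their sign, and 0.19 within the second, where 16 did. Without Smad3 knockout replicate 1, 5 were called higher and 0 lower, and without replicate 2, 6 and 1. The lower calls numbered 1 without either Smad2 knockout library, and 6 and 7 without replicates 1 and 2 of WT at day 4.

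Between the double knockout and the Smad2 knockout 10 genes were called higher and 12 lower, where 20.5% of all genes were called higher and 19.1% lower. The cytokinesis genes stood together: all 5 (Kif20a, Kif23, Prc1, Anln and Ect2) were called higher in the double knockout. Anln stood at 354 and 323 CPM in the double knockout, against 134 and 160.2 CPM in the Smad2 knockout (log2 change 1.21, SE 0.21, adjusted p = 0.00265). Kif20a, the kinesin that brings the passenger complex to the central spindle, stood at 259 and 278 CPM, against 131 and 148 CPM (log2 change 0.95, SE 0.18, adjusted p = 0.00347), and Kif23 at 186 and 184 CPM, against 89.2 and 108 CPM (log2 change 0.91, SE 0.18, adjusted p = 0.004). Every double knockout library lay above every Smad2 knockout library. Prc1, which bundles the microtubules of the central spindle, had 0.69 (adjusted p = 0.0112), and Ect2, the activator of RhoA at the division plane, 0.76 (adjusted p = 0.0296).

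Hmmr stood at 221 and 191 CPM in the double knockout, against 86.1 and 105 CPM in the Smad2 knockout (log2 change 1.11, SE 0.22, adjusted p = 0.00508), and Cenpe at 161 and 162 CPM, against 74.7 and 87.7 CPM (log2 change 0.99, SE 0.18, adjusted p = 0.00305). The largest fall was that of Pttg1, at 32.5 and 30.2 CPM against 99.6 and 91.3 (log2 change -1.60, SE 0.20, adjusted p = 0.000734). Spc24, at 33.0 and 32.9 CPM against 67.4 and 66.3 (log2 change -1.02, SE 0.21, adjusted p = 0.00575), and Ube2c, at 106 and 100.1 against 196 and 184 (log2 change -0.88, SE 0.16, adjusted p = 0.00343), were also lower. The groups did not overlap in these 5. Here too the log2 fold change followed length (Spearman 0.84 over the 40, 0.44 over all genes). With GC content the correlations were -0.53 and -0.23. Kif20a, Hmmr, Pttg1, Kif23, Anln and Prc1 kept their calls with the offset, at 0.47, 0.43, -0.80, 1.06, 0.61 and 0.49, and on the TPM scale; all but Prc1 kept them also without any 1 library. Inside the first name series, which alone holds double knockout libraries, the median was 0.03 and 22 of the 22 called genes kept their sign. Spc24 (-0.24, adjusted p = 0.138), Ube2c (-0.10, adjusted p = 0.471), Cenpe (0.03, adjusted p = 0.826) and Ect2 (0.06, adjusted p = 0.693) lost theirs with the offset. On the TPM scale 24 were called higher and 1 lower, with the median of all genes at 0.65, and as counted 5 were called higher without either double knockout library, 6 without Smad2 knockout replicate 1, and 7 lower without double knockout replicate 1.

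Between the double knockout and the Smad3 knockout 3 genes were called higher and 1 lower, where 7.53% of all genes were called higher and 8.01% lower; the median log2 fold change of the 40 was 0.18, against -0.01. Cdc25c stood at 43.8 and 40.1 CPM in the double knockout, against 21.1 and 19.1 CPM in the Smad3 knockout (log2 change 1.06, SE 0.18, adjusted p = 0.00412). Kif20a stood at 259 and 278 CPM, against 158 and 159 (log2 change 0.76, SE 0.17, adjusted p = 0.0182), and Kif23 at 186 and 184, against 128 and 117 (log2 change 0.60, SE 0.17, adjusted p = 0.0466). In these 3 the groups were apart. Cdc25c and Kif20a lie close together on chromosome 18, starting at bases 34732993 and 34624613. The part of position in their calls was not tested. The Kif23 call was lost with no low-count filter and with a block for replicate number or for name series. Cdc25b, the other CDC25 phosphatase of the list, ran the other way, at 25.1 and 22.3 CPM against 37.6 and 42.1 (log2 change -0.75, SE 0.19, adjusted p = 0.0245), again without overlap. The length correlation was 0.13. Inside the first name series the median was 0.17, and 4 of the 4 called genes kept their sign. The higher calls numbered 0 without Smad3 knockout replicate 2, 1 without Smad3 knockout replicate 1 or either double knockout library, 5 without WT day 4 replicate 2 and 8 without WT day 4 replicate 1. The lower call was lost without any of the 4 libraries compared. With the offset 14 were called higher and 2 lower (all genes 14.8 and 12.9%). Pttg1, at 32.5 and 30.2 CPM against 50.4 and 47.3, was just short of the threshold (-0.64, adjusted p = 0.0562).

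The interaction asked whether loss of Smad2 had another effect in cells without Smad3 (double knockout minus Smad3 knockout) than in cells with it (Smad2 knockout minus WT). Of the 40 genes 7 were called higher and 2 lower, where 11.3% of all genes were called higher and 7.52% lower, and the median was 0.41 against -0.01. For Cenpf, which had the largest value, the effect of Smad2 loss was 0.33 in the absence of Smad3 and -1.08 in its presence, a log2 difference of 1.42 (SE 0.31, adjusted p = 0.0169). For Kif20a the effects were 0.76 and -0.58, a difference of 1.34 (SE 0.25, adjusted p = 0.0105). For Hmmr they were 0.44 and -0.82, a difference of 1.27 (adjusted p = 0.026). In these 3 the Smad2 knockout was called lower than WT, and the value without Smad3 was positive. That value was called for Kif20a, but not for Cenpf (edgeR adjusted p = 0.354) or Hmmr (adjusted p = 0.223). For Pttg1 the effects were -0.64 and 0.64, a difference of -1.28 (adjusted p = 0.0167), and for Cenpa 0.07 and 0.79, a difference of -0.73 (adjusted p = 0.045). The values without Smad3 were not called for Pttg1 or Cenpa.

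The interaction values also followed length (Spearman 0.82 over the 40, 0.43 over all genes), as the effect in cells with Smad3 did. With GC content the correlations were -0.58 and -0.34. Kif20a (0.76, adjusted p = 0.0259) and Kif23 (0.94, adjusted p = 0.0124) were the 2 of the 9 that kept their calls with the length and GC offset, and both did so on the TPM scale as well. Cenpf had 0.22 (adjusted p = 0.424), Hmmr 0.38 (adjusted p = 0.183) and Pttg1 -0.54 (adjusted p = 0.0573) with the offset. Fewer higher calls were left without Smad2 knockout replicate 1 or without either library of the Smad3 or the double knockout. More calls, higher and lower, were made without WT day 4 replicate 2. The 2 lower calls fell to 1 or 0 without any of the other 9 libraries. DESeq2 called 11 higher, and its share of all genes is not given here.

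Spread between the libraries of a group was widest in WT at day 4, the group that 3 of the comparisons use as their base. There the log2 ratio of replicate 1 to replicate 2 ran from -0.98 (Plk1) to 0.71 (Ect2) over the 40 genes, with a median size of 0.41, against 0.0691 in the double knockout, 0.15 in the Smad2 knockout, 0.131 in the Smad3 knockout and 0.152 at day 0. The ratio followed GC content: its Spearman correlation with transcript GC was -0.89 in WT at day 4 and -0.78 in the Smad3 knockout, against -0.16 in the double knockout, 0.11 in the Smad2 knockout and 0.16 at day 0. Both double knockout libraries are in the first name series, whereas those of every other group span both series. The double knockout values thus lie within a series and the others between series. Plk1 stood at 96.1 and 189.7 CPM in the 2 WT libraries of day 4 and Espl1 at 87.7 and 163, both lower in replicate 1. Ect2 stood at 208 and 126 CPM and Top2a at 1052 and 798, both higher there. In the Smad2 knockout and at day 0 the ratio followed length instead, with Spearman correlations of -0.7 and -0.62.

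**Figure D4:**
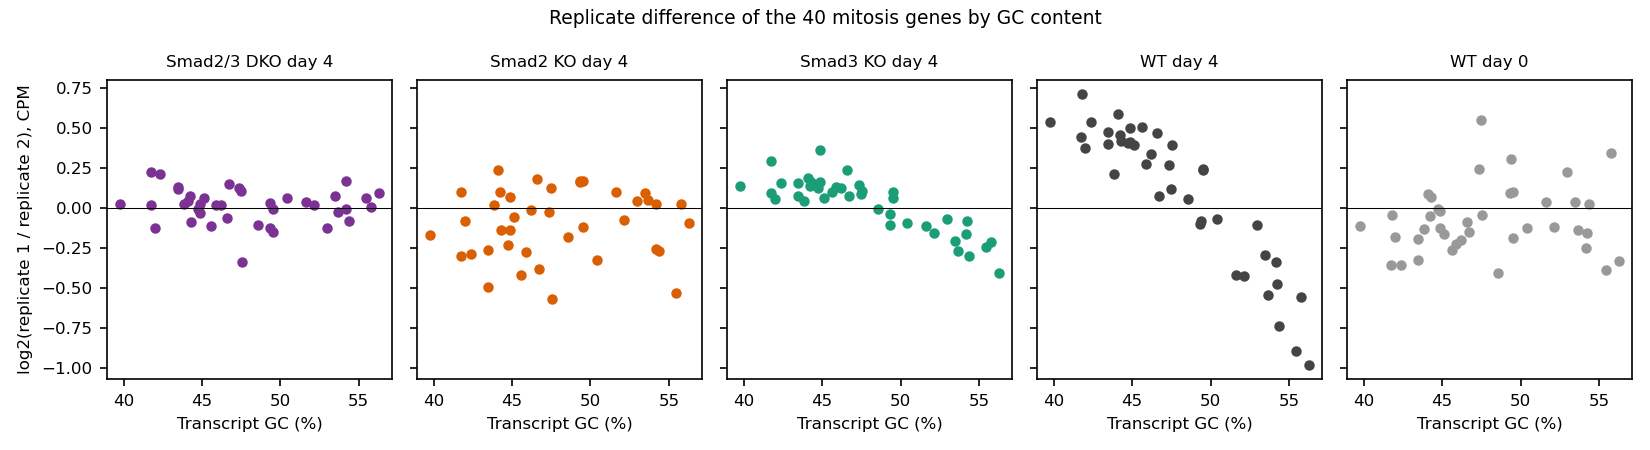
Log2 ratio of replicate 1 to replicate 2 in CPM (vertical axis) against the GC content of the transcripts in percent (horizontal axes) for the 40 mitosis genes, 1 panel a group. In WT at day 4 the points fall with GC from above 0 to -0.98 (Plk1). In the double knockout, whose libraries are both in the first name series, the points stay near 0.

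Other genes of mitosis and of DNA replication were counted beside the 40. Of 96 further mitosis genes, as counted, 27 were called higher and 25 lower in WT at day 4 than at day 0, 17 and 30 in the Smad2 knockout against WT, 0 and 0 in the Smad3 knockout and 3 and 4 in the double knockout. Their medians were -0.03, -0.2, -0.32 and -0.08 in that order, and in the Smad3 knockout 85 of 96 values were negative. With the length and GC offset the counts were 4 higher and 57 lower in WT at day 4 (all genes 22.8 and 25.7%), and 25 higher and 9 lower in the Smad2 knockout (all genes 12.7 and 12.5%), so the balance of the directions turned in that knockout. They were 0 and 5 in the Smad3 knockout and 20 and 7 in the double knockout. Of 54 DNA replication genes, which act in S phase, 3 were called higher and 29 lower in WT at day 4 (median -0.64), 7 and 9 in the Smad2 knockout (-0.09), 0 and 1 in the Smad3 knockout (-0.5; 52 of 54 negative) and 0 and 17 in the double knockout (-0.48). With the offset the lower calls among them numbered 41 in WT at day 4, 4 in the Smad2 knockout, 17 in the Smad3 knockout (2.71% of all genes) and 27 in the double knockout (17.8% of all genes), and the higher calls 0, 2, 0 and 0 in that order. Whether the replication genes differ from the mitosis genes was not tested.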

How the data were processed

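RNA was measured in 10 libraries, and the ChIP samples were not analysed here. Per the submitters' processing notes the tools include FastQC 0.11.5, STAR, Bowtie2, RSEM and HOMER, with build mm10. The deposited tables hold RSEM expected counts and TPM per gene, made by the authors; expected counts were rounded to whole numbers. Gene IDs were matched to symbols for 53274 of 53379 IDs. One edgeR 4.0.16 quasi-likelihood fit (TMM, filterByExpr) held all 5 groups, sharing 5 residual degrees of freedom. CPM values are counts scaled by TMM library sizes, except the marker sums, which are scaled by total counts alone. TPM was tested with limma 3.58.1 as log2(TPM + 1), with genes of mean TPM of at least 1 (14328 genes). No further scaling between libraries was applied to TPM, so a shift of all genes enters every TPM value. The shares of all genes called on that scale are not given here, so a TPM count has no background beside it. The offset was a smooth trend of each library over length and GC (mgcv 1.9.3). DESeq2 1.42.0 was an alternative, and the shares of all genes it called are not given here. Depth was 35733249 to 53672980 counts per library; precision is limited by 2 libraries a group. Named genes were 11 fixed genes plus up to 3 called in each direction by size. Further genes named in the text, such as those called or lost under an alternative, were chosen after their values were seen. The members and lists were chosen with earlier results of these data known. The fit was tested on simulated data.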

Additional observations from a re-analysis of the deposited data

Results flagged for a closer look

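For 9 of the 40 mitosis genes, edgeR's test of the difference itself called another effect of Smad2 loss without Smad3 than with it. A knockout cannot be told apart from its line here. Of all genes tested, 11.3% were called higher and 7.52% lower in that test, beside 17.5 and 5.0% of the 40. Among all genes longer than 2404 bases 22.5% were called higher, beside 6 of the 20 longer mitosis genes. On the log2 scale the effect was higher without Smad3 for Kif20a (1.34, adjusted p = 0.0105), Kif11 (1.25, adjusted p = 0.0206), Hmmr (1.27, adjusted p = 0.026), Cenpf (1.42, adjusted p = 0.0169), Ect2 (1.22, adjusted p = 0.0335), Kif23 (0.96, adjusted p = 0.0289) and Cenpe (1.27, adjusted p = 0.0125). It was lower without Smad3 for Pttg1 (-1.28, adjusted p = 0.0167) and Cenpa (-0.73, adjusted p = 0.045). With the length and GC offset Kif20a and Kif23 stayed called, and the other 7 did not. No gene of the 9 kept its call without each of the 10 libraries in turn.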

How the results depend on the processing

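The alternatives were RLE size factors, no low-count filter, DESeq2, blocks for replicate number and name series, the compared groups alone, the length and GC offset, limma on log2(TPM + 1) and log2(TPM + 0.1), and each library left out. For WT at day 4 against day 0, the count called higher was 8 as fitted and 3 with the compared groups alone, 0 with the length and GC offset, 19 with log2(TPM + 1) and 19 with log2(TPM + 0.1). The count called lower was 13 as fitted and 7 with the compared groups alone, 24 with the length and GC offset, 3 with log2(TPM + 1) and 3 with log2(TPM + 0.1). Leaving out 1 library gave 3 to 11 for the count called higher and 7 to 13 for the count called lower. For the Smad2 knockout against WT, the count called higher was 8 as fitted and 0 with the compared groups alone, 0 with log2(TPM + 1) and 0 with log2(TPM + 0.1). There the count called lower was 12 as fitted and 1 with the compared groups alone, 1 with the length and GC offset, 22 with log2(TPM + 1) and 22 with log2(TPM + 0.1). Fits without 1 library gave 2 to 19 for the count called lower. For the Smad3 knockout against WT, the count called lower was 0 as fitted and 1 with DESeq2 and 2 with the length and GC offset. The 10 fits that each lacked 1 library gave 0 to 1 for the count called higher and 0 to 11 for the count called lower. For the double knockout against WT, the count called higher was 2 as fitted and 0 with no low-count filter, 1 with the replicate block, 0 with the compared groups alone and 8 with the length and GC offset. There the count called lower was 1 as fitted and 7 with the length and GC offset. Each library left out in turn gave 0 to 4 for the count called higher and 0 to 8 for the count called lower. For the Smad2 against the Smad3 knockout, the count called higher was 13 as fitted and 20 with the length and GC offset, 1 with log2(TPM + 1) and 1 with log2(TPM + 0.1). The count called lower was 3 as fitted and 17 with log2(TPM + 1) and 17 with log2(TPM + 0.1). Leaving out 1 library gave 5 to 16 for the count called higher and 0 to 7 for the count called lower. For the double against the Smad2 knockout, the count called higher was 10 as fitted and 6 with the length and GC offset, 24 with log2(TPM + 1) and 24 with log2(TPM + 0.1). There the count called lower was 12 as fitted and 1 with log2(TPM + 1) and 1 with log2(TPM + 0.1). Fits without 1 library gave 5 to 10 for the count called higher and 7 to 13 for the count called lower. For the double against the Smad3 knockout, the count called higher was 3 as fitted and 12 with the compared groups alone and 14 with the length and GC offset. The count called lower was 1 as fitted and 2 with no low-count filter, 2 with the replicate block, 2 with the name series as a block, 2 with the compared groups alone, 2 with the length and GC offset, 0 with log2(TPM + 1) and 0 with log2(TPM + 0.1). The 10 fits that each lacked 1 library gave 0 to 8 for the count called higher and 0 to 2 for the count called lower. For the interaction, the count called higher was 7 as fitted and 11 with DESeq2, 24 with log2(TPM + 1) and 24 with log2(TPM + 0.1). There the count called lower was 2 as fitted and 1 with RLE size factors, 1 with no low-count filter, 1 with the replicate block, 1 with the compared groups alone, 0 with the length and GC offset, 0 with log2(TPM + 1) and 0 with log2(TPM + 0.1). Each library left out in turn gave 0 to 18 for the count called higher and 0 to 7 for the count called lower. The causes of these moves were not tested. The shares of all genes called were not counted in the fits that leave out 1 library, so those counts have no background beside them.

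For WT at day 4 against day 0, Kif23 (-0.04) and Prc1 (-0.03) changed sign with RLE size factors and DESeq2. Ccnb1 (0.00), Bub1b (0.00) and Mad2l1 (0.02) did so with no low-count filter. Kif23 (-0.01) and Prc1 (-0.01) did so with the compared groups alone. Ccna2 (-0.41), Plk1 (0.09), Bub1 (-0.19), Ttk (-0.16), Cenpe (-0.56), Cenpf (-0.52), Spc25 (0.00), Kif11 (-0.70), Kif4 (-0.99), Hmmr (-0.77), Kif20a (-0.46), Kif23 (-0.08), Prc1 (-0.50), Anln (-0.23), Ect2 (-0.60), Top2a (-0.57) and Mki67 (-1.03) did so with the length and GC offset. Cdk1 (0.41), Ccnb1 (0.93), Cdc25b (0.76), Cdc25c (0.26), Plk1 (0.56), Aurka (0.33), Tpx2 (0.78), Aurkb (0.37), Incenp (0.23), Cdca8 (0.33), Bub1b (0.87), Mad2l1 (0.76), Cdc20 (0.06), Espl1 (0.66), Ndc80 (0.43), Spc25 (0.63), Kif2c (0.51) and Nusap1 (0.50) did so with log2(TPM + 1), and the same genes with log2(TPM + 0.1), at the same values but for Cdc25b 0.83, Cdc25c 0.27, Aurka 0.34, Tpx2 0.79, Incenp 0.24, Bub1b 0.88, Mad2l1 0.77, Espl1 0.68, Ndc80 0.44, Spc25 0.64, Kif2c 0.52 and Nusap1 0.51. Over the fits that leave out 1 library, values of both signs were found for Kif23 (-0.18 to 0.14), Prc1 (-0.21 to 0.18), Cdc25b (-0.26 to 0.04), Bub1b (-0.11 to 0.05), Mad2l1 (-0.26 to 0.18), Espl1 (-0.60 to 0.24), Ccna2 (-0.15 to 0.37), Plk1 (-0.77 to 0.16), Ccnb1 (-0.34 to 0.21), Tpx2 (-0.27 to 0.02) and Spc25 (-0.52 to 0.12). For the Smad2 knockout against WT, Kif2c (0.01) changed sign with RLE size factors and DESeq2. Plk1 (0.01) did so with the replicate block. Plk1 (0.03) did so with the name series as a block. Ccna2 (0.09), Tpx2 (0.25), Aurkb (-0.04), Bub1 (0.14), Bub1b (0.10), Ttk (0.24), Cdc20 (-0.01), Ube2c (-0.18), Espl1 (0.08), Cenpe (0.41), Cenpf (0.18), Spc25 (-0.02), Kif2c (0.25), Kif4 (0.37), Nusap1 (0.34), Hmmr (0.06), Kif20a (0.05), Prc1 (0.07), Anln (0.10), Ect2 (0.08) and Mki67 (0.64) did so with the length and GC offset. Cdk1 (-0.18), Cdc25c (-0.32), Aurka (-0.45), Aurkb (-0.28), Incenp (-0.68), Cdca8 (-0.33), Mad2l1 (-0.59), Cdc20 (-0.29), Ube2c (-0.00), Pttg1 (-0.05), Ndc80 (-0.31) and Spc25 (-0.54) did so with log2(TPM + 1), and the same genes with log2(TPM + 0.1), at the same values but for Cdc25c -0.34, Aurka -0.46, Aurkb -0.29, Incenp -0.69, Ndc80 -0.32 and Spc25 -0.55. Over the fits that leave out 1 library, values of both signs were found for Incenp (-0.15 to 0.26), Kif2c (-0.18 to 0.14), Nusap1 (-0.38 to 0.14), Plk1 (-0.39 to 0.53), Mad2l1 (-0.13 to 0.32) and Spc25 (-0.15 to 0.50). For the Smad3 knockout against WT, Plk1 (0.01) and Kif23 (0.04) changed sign with the compared groups alone. Ndc80 (0.07), Hmmr (0.05) and Kif23 (0.11) did so with the length and GC offset. Plk1 (0.07) and Spc24 (0.06) did so with log2(TPM + 1) and log2(TPM + 0.1). Over the fits that leave out 1 library, values of both signs were found for Ndc80 (-0.20 to 0.05), Kif4 (-0.42 to 0.02), Hmmr (-0.40 to 0.16), Kif23 (-0.18 to 0.13), Plk1 (-0.46 to 0.50), Aurkb (-0.34 to 0.17), Incenp (-0.43 to 0.02), Cdca8 (-0.34 to 0.05), Cdc20 (-0.57 to 0.13), Espl1 (-0.50 to 0.36), Spc24 (-0.52 to 0.01) and Prc1 (-0.14 to 0.23). For the double knockout against WT, Cdk1 (0.02), Tpx2 (0.04), Espl1 (0.03) and Cenpa (0.01) changed sign with RLE size factors and DESeq2. Espl1 (0.04) did so with the replicate block. Plk1 (0.02), Incenp (0.05) and Espl1 (0.29) did so with the name series as a block. Cdk1 (0.04), Tpx2 (0.06), Espl1 (0.03), Cenpa (0.02) and Kif4 (0.02) did so with the compared groups alone. Cdk1 (0.08), Tpx2 (0.12), Cenpf (0.05), Spc24 (-0.12), Kif4 (0.18), Nusap1 (0.04) and Ect2 (0.15) did so with the length and GC offset. Cdk1 (0.20), Ccnb1 (0.03), Cdc25b (0.12), Tpx2 (0.22), Aurkb (0.05), Incenp (0.12), Espl1 (0.22), Cenpa (0.11), Kif2c (0.11), Kif4 (0.07), Nusap1 (0.06) and Ect2 (0.14) did so with log2(TPM + 1), and the same genes with log2(TPM + 0.1), at the same values but for Cdc25b 0.13, Tpx2 0.23 and Espl1 0.23. Over the fits that leave out 1 library, values of both signs were found for Cdk1 (-0.14 to 0.16), Ccnb1 (-0.44 to 0.13), Tpx2 (-0.12 to 0.18), Cenpf (-0.44 to 0.13), Spc24 (-0.15 to 0.33), Spc25 (-0.59 to 0.06), Kif4 (-0.24 to 0.24), Nusap1 (-0.38 to 0.14), Ect2 (-0.39 to 0.39), Plk1 (-0.62 to 0.30), Aurkb (-0.39 to 0.09), Incenp (-0.24 to 0.17), Cdc20 (-0.58 to 0.10), Espl1 (-0.35 to 0.48) and Cenpa (-0.10 to 0.01). Of the genes named for the Smad2 against the Smad3 knockout, Hmmr (0.01), Kif20a (0.33) and Ect2 (0.31) changed sign with the length and GC offset. Between the Smad2 and Smad3 knockouts, 1 of the 16 called genes changed sign with the offset and 6 on log2(TPM + 1), and between the double and the Smad2 knockouts 3 and 7 of the 22.

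Same-numbered libraries had correlated deviations of 0.113 to 0.51 in the 6 pairs of groups without the double knockout and of -0.18 to -0.0354 in the 4 pairs with it. Both double knockout libraries are in the first name series, so replicate number follows the series only in the other groups. No label pairs the libraries, and the replicate block is given as an alternative. Under the replicate block, 2 genes were called lower between the double and the Smad3 knockouts and 1 higher between the double knockout and WT. It also ended the Kif23 calls of the double knockout against WT and against the Smad3 knockout, and the Hmmr call between the Smad2 and Smad3 knockouts. With 2 libraries a group, a difference that misses the threshold does not show that levels were alike.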
